A study of Mus musculus with 4 samples.

Results

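The genes described here are the ABC transporters and the organic ion carriers of the Slc22, Slc47 and Slco families in mouse small intestine. They were chosen by symbol alone: Abc followed by a family letter from a to g and a number, or Slc22a, Slc47a or Slco followed by a number, with 1 Slco gene left out by the definition of the set. This gave 81 genes with 149 probe sets, of 18194 genes with 34958 probe sets that carry a single gene symbol. The Abc families held 45 of the genes, Slc22 held 21, Slco held 14 and Slc47 held 1. RNA came from CF mice, which carry the Cftr-tm1Unc null allele, and from WT mice that were their littermates, all of strain C57BL/6 in the labels (C57BL/6J in the study's methods) and all fed the liquid diet Peptamen from weaning. WT control and CF control mice were untreated according to the labels, and WT + lubiprostone and CF + lubiprostone mice received lubiprostone, a bicyclic fatty acid used against constipation, by daily gavage in Peptamen at 10 µg/kg/day for 2 weeks. The age of the mice is not given in the sources used here, and neither is whether the control mice were gavaged with the vehicle. Total RNA of the entire small intestine was pooled by group, and 1 Affymetrix whole-genome array for mouse was used for each pool. The CF control pool held 10 mice and the CF + lubiprostone pool 8, the WT + lubiprostone pool held 7, and the WT control pool held 10 by the series text and 8 by the study's methods.

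ABC transporters are membrane pumps that use ATP to move lipids, sterols, bile salts, conjugates and drugs across membranes, and in the enterocyte several of them sit in the brush border and return absorbed compounds to the lumen. The Slc22 and Slc47 carriers move organic cations, organic anions and carnitine, and the Slco carriers take up bile acids, hormone conjugates and drugs. In the intestine these proteins together influence how much plant sterol, cholesterol, bile acid and oral drug enters the body. CFTR itself belongs to the ABC superfamily (its systematic name is ABCC7), but it was not a member here because its gene symbol is Cftr.

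Each probe set gave 1 signal, an intensity in arbitrary units summarized from its probes, and signals of different genes were not compared with each other. For a gene with several probe sets the signal given is the mean over its probe sets on the log scale. Probe sets were used if they reached the median of their own array on at least 1 of the 4 arrays, and 47 of the 81 genes passed with 75 probe sets. By family, 34 of the 45 Abc genes passed, 9 of the 21 Slc22 genes, the single Slc47 gene and 3 of the 14 Slco genes. The array medians lay between 109 and 124. The remaining 34 genes did not reach the median on any array, and their low signals have no order. Among them were Abcb11, the bile salt export pump of the liver, Abcb1b, the second mouse P-glycoprotein gene, Slc22a2 and Slc22a6, carriers best known from kidney, and Slco1a4, Slco1a5, Slco1a6 and Slco1b2, uptake carriers known from liver, brain and gut. Ratios were formed with signals below the array median raised to it, and a fold is called "at least" where this was done for the lower signal. The comparison of CF control with WT control is called the untreated pair below, and that of CF + lubiprostone with WT + lubiprostone the treated pair. Each group was 1 pool on 1 array, so there is no spread between replicates, no difference could be tested, and "higher" and "lower" compare these pools only.

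Several features of the arrays moved with the groups. Cftr had signals of 870.5, 595, 171 and 176, in the order in which all values below are given: untreated WT, treated WT, untreated CF and treated CF. Both CF pools were lower. All 6 measured villus enterocyte markers were lower in CF in the untreated pair, with a median log2 ratio of -0.30, and their summed signal was 172581, 180124, 120158 and 134107, with lactase (Lct) the 1 at 2-fold or more. Summed pancreas markers were 17757, 1490.04, 18509 and 4311, lower in both treated pools. Summed smooth muscle markers were 7032, 7865, 13550 (13549.7) and 8228, and summed mast cell markers 976, 715, 10383 and 1183, both highest in CF control. Xist, which is transcribed from the inactive X chromosome, ranged from 308 to 1012, so the pools also differed in a marker of sex. The part of these differences in the transporter values was not tested. In RNA of whole intestine, fewer cells of a type and less RNA per cell cannot be told apart.

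In the untreated pair, large differences among the transporters lay in 1 direction, with CF lower than WT. At 3-fold, the threshold the study used, 4 of the 43 measured members were lower, Slc47a1, Abca1, Abcb1a and Abcc10, which is 9.3% of those measured where 0.923% of all 11806 measured genes were as much lower. None was 3-fold higher, against 0.508% of all genes. At 2-fold, 9 members were lower, or 20.9%, with Abcg8, Slc22a4, Abca8a, Abcg5 and Abca9 added, against 2.61% of all genes, and none was higher, against 1.5%. With the arrays as deposited, small differences were nearer to the rest of the array. At any size 27 of the 43 members were lower, or 62.8%, against 53.8% of all genes, and 16 were higher, against 46.2%. The median log2 ratio was -0.25 for members and -0.03 for all genes. Scaling the arrays to the same median moved the median of all genes to 0.15 and that of the members to -0.07, and turned the direction of 3 members, none of them beyond a log2 ratio of 0.14. The shares lower at any size were then 55.8% of members and 33.7% of all genes, and 60.5% and 46.1% under quantile normalization, wider apart than as deposited.

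**Figure D1:**
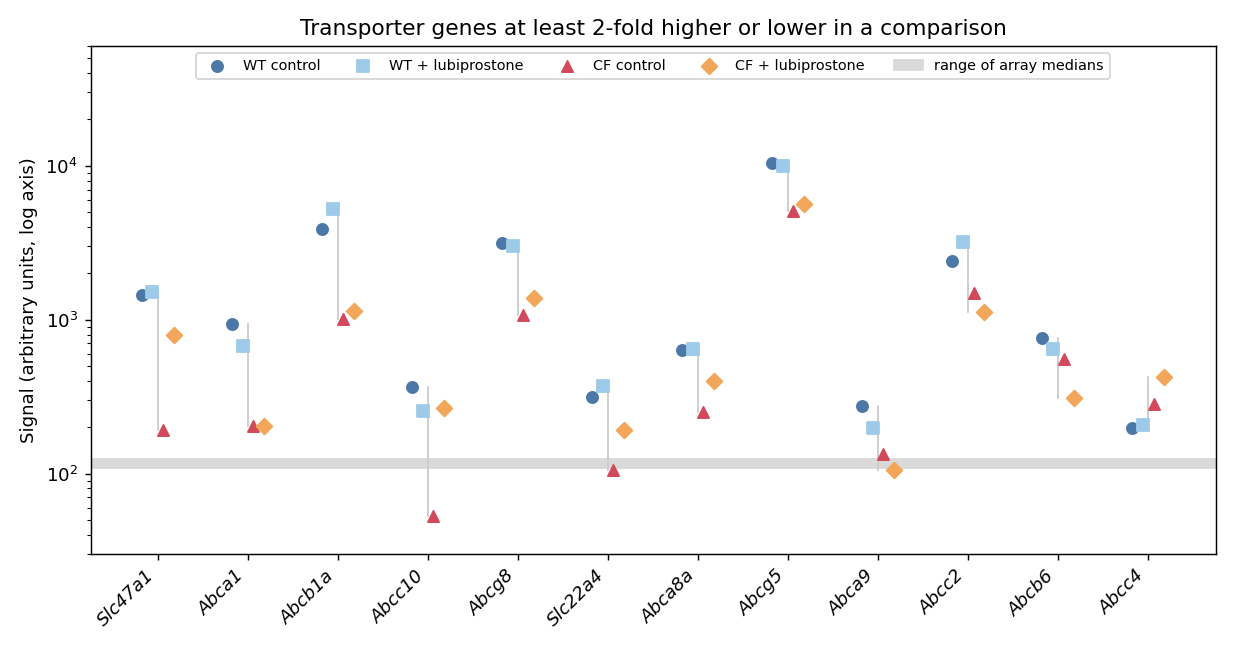
Signal on a log axis, in arbitrary units, of the 12 transporter genes that were at least 2-fold higher or lower in a comparison, with 1 point for each pool (1 array each, no error bars) and the span of the array medians shaded grey. For all of these genes but Abcc10 and Abcc4 both CF pools lie below both WT pools. For Slc47a1 and Abcc10 the CF control pool alone lies far below the other pools.

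Of the groups with at least 3 measured members, the sterol exporters had the largest share at 2-fold lower in the untreated pair. Abcg5 and Abcg8 encode the partners in the heterodimer that returns plant sterols and cholesterol to the gut lumen. Abcg8 had signals of 3139 and 2992 in the WT pools, without and with lubiprostone, and of 1068 and 1377 in the CF pools. Abcg5 had signals of 10446 and 10022 in the WT pools and of 5089 and 5631 in the CF pools. For both genes the WT pools were close to each other and the CF pools lay well below them. In the CF pool Abcg8 was 2.94-fold lower in the untreated pair and 2.17-fold lower in the treated pair. Abcg5 was 2.05-fold and 1.78-fold lower, and its first value came to a log2 ratio of -0.86, short of 2-fold, under median scaling.

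Abcg5 and Abcg8 lie head to head on mouse chromosome 17. Their RefSeq starts (build GRCm38.p6) leave 109 bases between them, so the promoter windows of the pair, 250 bases before to 50 after each start, share 209 bases. The stretch between the starts is shown because it is all that separates a pair whose signals moved alike, and it is written on the strand of Abcg8, chr17:84683012-84683120. Capitals mark GATAA, the core bound by GATA factors, which was found on the other strand as TTATC at bases 17 to 21 and 47 to 51, and TATAAA, the TATA box letters, found on the other strand as TTTATA at bases 79 to 84.
Abcg5 and Abcg8, between the starts: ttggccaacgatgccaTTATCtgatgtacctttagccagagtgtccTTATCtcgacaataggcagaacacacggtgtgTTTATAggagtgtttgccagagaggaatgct
GATAA occurred in 25.4% and TATAAA in 13.6% of all 32851 RefSeq windows of the table, with both strands searched, so neither is rare.

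Abca1, which loads cholesterol onto apolipoprotein A-I at the basolateral side of the enterocyte, had signals of 934 and 669.9 in the WT pools, without and with lubiprostone, and of 203 and 204 in the CF pools. Both CF pools were below both WT pools. In CF it was lower by at least 4.28-fold in the untreated pair, where it stood 47th from the lowest of 11806 genes, and by at least 2.82-fold in the treated pair. Its brightest probe set read 3776, 3532, 771 and 738, and the others read 690.01, 418, 123 and 151, and 312, 204, 87.8 and 76.3, so all 3 probe sets had the same order of genotypes. The promoter window of Abca1 before the start (GRCm38.p6, chr4:53159896-53160145, minus strand) is shown because it holds letters of a sterol-responsive type. Capitals mark CACGTG, an E-box, at bases 104 to 109, GGGCGG, the GC box, at 88 to 93 and 154 to 159, TATAAA at 222 to 227, and a direct repeat spaced by 4 bases, of the kind bound by liver X receptors with RXR, searched as GGTNA, any 5 bases and GGTCA, which lies on the other strand at 184 to 198.
Abca1: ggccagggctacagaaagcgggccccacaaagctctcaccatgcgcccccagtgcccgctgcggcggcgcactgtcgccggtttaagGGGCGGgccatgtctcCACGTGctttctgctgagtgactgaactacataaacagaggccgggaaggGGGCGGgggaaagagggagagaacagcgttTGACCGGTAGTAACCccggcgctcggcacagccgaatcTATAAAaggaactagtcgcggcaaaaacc
The direct repeat occurred in 0.207% of all windows, CACGTG in 7.15% and GGGCGG in 35.7%. A match of letters is a description and not a site shown to be used, and the motifs were chosen after the values of these genes had been seen.

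Abcg1, which moves sterols within cells and to lipoproteins, had signals of 427, 345, 257 and 201 and was 1.66-fold lower in CF in the untreated pair and 1.72-fold lower in the treated pair. Abcg4, its near relative known from brain, differed from the rest of the group, with 159, 245, 265 and 252, lowest in WT control. Thus 4 of the 5 sterol exporters were lower in CF in the untreated pair, where 53.8% of all genes were lower. At 2-fold it was 3 of the 5, against 2.61% of all genes. The median log2 ratio of the group was -1.04, and the count of directions was the same under median scaling and quantile normalization.

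The apical drug efflux pumps differed from each other in how far they followed genotype. Abcb1a, the main intestinal P-glycoprotein gene, whose product expels a wide range of drugs, had signals of 3907 and 5214 in the WT pools, without and with lubiprostone, and of 1009.7 and 1145 in the CF pools. Both CF pools were far below both WT pools. Abcb1a was 3.87-fold lower in CF in the untreated pair and 4.56-fold lower in the treated pair, where it stood 32nd from the lowest of 11792 genes and no other member reached 3-fold. Its probe sets were close to each other, with ratios of 0.235 and 0.285 in the control pools and 0.203 and 0.237 in the treated pools. Its promoter window before the start (GRCm38.p6, chr5:8566841-8567090, plus strand) is shown for contrast with that of Abca1, since none of the 6 motifs searched (those above and CCAAT) matched it, and it therefore has no capitals.
Abcb1a: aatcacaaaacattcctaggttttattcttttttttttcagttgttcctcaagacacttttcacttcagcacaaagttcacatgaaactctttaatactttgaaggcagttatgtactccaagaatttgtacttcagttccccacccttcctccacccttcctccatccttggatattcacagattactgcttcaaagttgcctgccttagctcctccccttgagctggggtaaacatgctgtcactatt

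Abcc2 (MRP2), which exports glucuronide and glutathione conjugates into the lumen, had signals of 2393, 3171, 1494 and 1114. It was higher with lubiprostone in WT mice and lower in CF mice, so that the difference between genotypes was 1.6-fold without lubiprostone and 2.85-fold with it. Abcg2, the breast cancer resistance protein, which exports sulfate conjugates and dietary toxins, had signals of 6435, 9252, 6007 and 7237. In CF it was 1.07-fold lower in the untreated pair, a difference that turned to slightly higher under median scaling, and 1.28-fold lower in the treated pair. All 3 measured pumps were higher with lubiprostone in WT mice, where 49.3% of all genes were higher. The difference was 1.33-fold for Abcb1a, 1.32-fold for Abcc2 and 1.44-fold for Abcg2.

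Among the other lipid and bile transporters, 5 of the 16 listed genes on the arrays could be measured in the control pools. Abca8a and Abca9, neighbours in a cluster of 5 related genes, were the members at 2-fold. Abca8a had signals of 635, 646, 252 and 398 and was 2.52-fold lower in CF in the untreated pair. Abca9 had signals of 273, 196, 134 and 106 and was 2.03-fold lower, a value that came short of 2-fold under median scaling, under quantile normalization, and with no filter together with signals as measured, where its log2 ratio was -0.45. In the treated pair the CF signals were lower by 1.62-fold and by at least 1.64-fold. Abcb4, the phosphatidylcholine floppase of bile, had signals of 186, 163, 128 and 199.6, lowest in CF control. Abca7, a phospholipid transporter linked to phagocytosis, was the 1 of the 5 that was higher in CF control, with 287, 377, 394 and 477. Abca3, the surfactant lipid transporter, read 353, 323, 321 and 342 and differed little between the pools.

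The other multidrug resistance proteins of the Abcc family did not move together in the control pools, with 3 of 6 higher and 3 lower in CF control. Abcc10 (MRP7), a pump for lipophilic anions and some cytotoxic drugs, had signals of 366, 255, 53.1 and 268. The CF control signal lay below its array's median and the other pools well above theirs. Abcc10 was lower in CF by at least 3.35-fold in the untreated pair, and higher with lubiprostone in CF mice by at least 2.45-fold, and both values rest on the same CF control signal of 1 probe set. When the filter was left off and signals were also used as measured, which averages in a dim probe set, the log2 ratios came to -0.47 and 0.27.

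Abcc3 (MRP3), the basolateral exporter of glucuronides and bile salts, had signals of 865, 1503, 1196 and 1524, lowest in WT control. Abcc4 (MRP4), a basolateral exporter of cyclic nucleotides and prostaglandins, had 196, 208, 282 and 422. Abcc4 was higher in both CF pools than in both WT pools, by 1.43-fold without lubiprostone and 2.03-fold with it, and was the 1 member at 2-fold or more higher in CF than in WT in either pair. Abcc6, named after its values were seen, went the other way, with 211, 226, 87.3 and 92.6, at least 1.93-fold and at least 1.89-fold lower in the CF pools. Abcc5, a cyclic nucleotide exporter with 6 probe sets, read 294, 278, 211 and 216, and Abcc1 (MRP1), the glutathione conjugate exporter, read 171, 198, 232 and 241. The sulfonylurea receptors Abcc8 and Abcc9, regulatory subunits of KATP potassium channels, were both somewhat lower in CF control. Abcc8 had signals of 227, 152, 136 and 217, and Abcc9 had 485, 378, 385 and 416.

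Abcd3, which imports branched-chain acyl groups and bile acid precursors into peroxisomes, had signals of 13024, 12845, 9057 and 10090.1. Both CF pools were lower, by 1.44-fold without lubiprostone and 1.27-fold with it. Of the Abcb genes of mitochondria and lysosomes, Abcb6, a porphyrin transporter, had signals of 755, 641, 554 and 309. It was lowest in CF + lubiprostone, 2.07-fold below WT + lubiprostone. Abcb10, a mitochondrial transporter needed for haem synthesis, ran the other way, with 806, 927, 1007 and 1257, and Abcb8 read 499, 428, 571 and 372. The Abce and Abcf proteins have ATP-binding domains but no membrane domains and act on ribosomes and translation. All 4 were counted as higher in CF in the untreated pair, under each of the 3 scalings, with a median log2 ratio of 0.18. As deposited, 46.2% of all genes were higher and 53.8% lower. The share of all genes that was lower fell to 33.7% under median scaling and 46.1% under quantile normalization, so a higher value was commoner there. The count of Abcf2 as higher rests on 1 of its probe sets, which read 282, 256, 306 and 285. Its other probe set, below the array median in both untreated pools, read 88.9, 153, 32.2 and 115. Abce1, which recycles ribosomes, was the furthest at 1.56-fold, with 751, 868, 1172 and 836, while Abcf1, Abcf2 and Abcf3 lay between 1.03-fold and 1.18-fold.

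Slc47a1 (MATE1), a proton-coupled exporter of organic cations such as metformin, showed the widest difference of any member. Its signals were 1445 and 1503 in the WT pools, without and with lubiprostone, and 191 and 797 in the CF pools. The CF signal was 7.56-fold lower in the untreated pair, which placed Slc47a1 17th from the lowest of 11806 genes. With lubiprostone the CF signal was 4.17-fold higher, 7th from the highest of 11795 genes, and in the treated pair it was 1.89-fold lower than that of WT mice. The first of these ratios share the CF control array, so a single low reading there would enter both, and the comparison of the treated pools does not use it. The signal came from 1 probe set.

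Of the carnitine carriers, whose genes Slc22a5, Slc22a21 and Slc22a4 lie side by side, Slc22a4 (OCTN1), the ergothioneine carrier, differed most between the control pools. It had signals of 316, 371, 105 and 192 and was lower in CF by at least 2.89-fold in the untreated pair and by 1.94-fold in the treated pair. Slc22a5 (OCTN2), the sodium-coupled carnitine carrier, had 1297, 1125, 891 and 959, with smaller differences in the same direction. Slc22a21 (OCTN3), named to complete the cluster, read 238, 346, 252 and 392 and followed treatment more than genotype. The neighbouring genes thus had 3 patterns over the 4 pools.

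Slc22a18 and Slc22a23 are orphan carriers. Slc22a18 had signals of 1243, 1337, 1469.75 and 882, lowest in CF + lubiprostone, and Slc22a23 was even, with 712, 748, 722 and 822. Of the Slco genes 3 were measured. Slco2b1, the widely expressed uptake carrier for sulfate conjugates and many drugs, had signals of 783, 866, 649 and 703. Slco4a1, a thyroid hormone carrier, had 181, 224, 309 and 229, and was 1.71-fold higher in CF in the untreated pair. Slco3a1 had 192, 163, 229 and 204. None of the Slco genes reached 2-fold in any of the 4 comparisons. In the untreated pair the probe sets of Slco3a1 were the most discordant of all members, while those of Slco4a1 were close, with ratios of 1.67 and 1.75. The probe sets of Slco4a1 were the most discordant in the treated pair and with lubiprostone in WT mice.

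**Figure D2:**
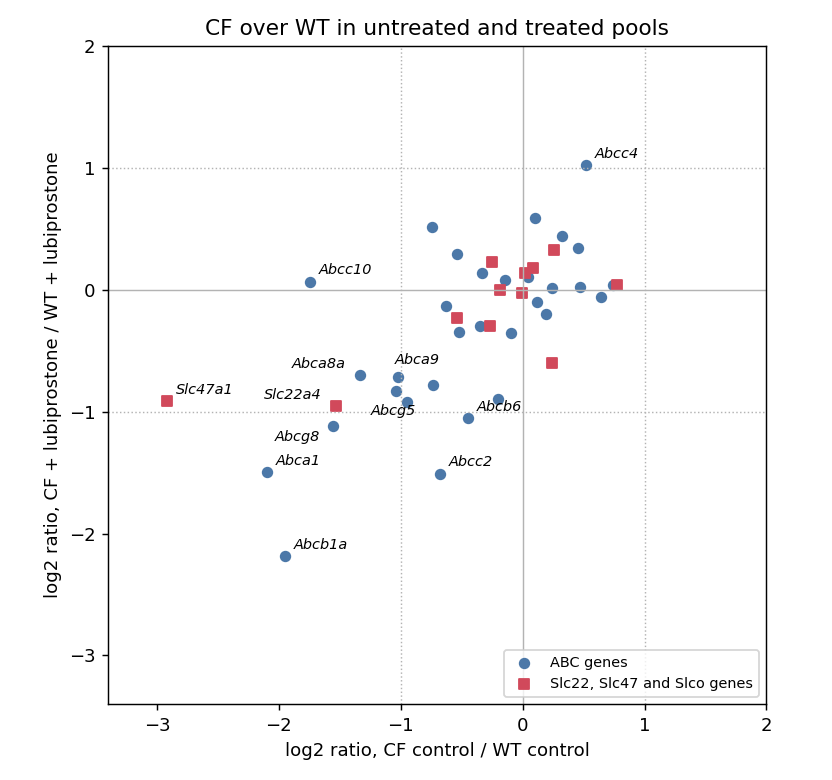
Log2 ratio of CF over WT for the 43 transporter genes measured in both pairs of pools, without lubiprostone on the horizontal axis and with lubiprostone on the vertical axis, 1 point a gene, with dotted lines at 2-fold. Abcb1a, Abca1 and Abcg8 lie beyond 2-fold lower on both axes, and Slc47a1 and Abcc10 are far lower on the horizontal axis only.

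The 2 comparisons of CF with WT mice use different arrays, and 43 members were measured in both. At 2-fold, Abcb1a, Abca1 and Abcg8 were lower in each, where 1.21% of all 11339 genes measured in both were, and no member was higher in each, against 0.697% of all genes. At any size, 21 members were lower in each and 12 higher in each, against 33.4% and 30.2% of all genes, and 10 went opposite ways. In the treated pair alone, 1 of 47 measured members was 3-fold lower, against 0.517% of all genes, and none 3-fold higher, against 0.526%. At 2-fold, 5 were lower, or 10.6%, against 1.72%, namely Abcb1a, Abcc2, Abca1, Abcg8 and Abcb6, and Abcc4 was higher, against 1.63%. At any size 27 were lower and 20 higher, against 50.3% and 49.7% of all genes, and the median log2 ratio of the members was -0.06. Whether the difference between genotypes depended on lubiprostone could not be tested for any member.

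With lubiprostone in WT mice no member reached 2-fold in either direction, where 0.257% of all 11691 genes were at least 2-fold higher and 0.359% lower, and 0.0428% at least 3-fold higher and 0.163% lower. The log2 ratios of the 45 measured members ran from -0.58 for Abcc8 to 0.80 for Abcc3, with a median of 0.02, and 24 were higher and 21 lower, against 49.3% and 50.7% of all genes. In CF mice, Slc47a1 was the 1 of 44 measured members at 3-fold higher, against 0.203% of all 11795 genes, and with Abcc10 there were 2 at 2-fold, or 4.55%, against 1.27%. None was 2-fold lower, against 0.873%, or 3-fold lower, against 0.212%. At any size 29 of 44 were higher and 15 lower, or 34.1% lower, against 52.9% and 47.1% of all genes. The median log2 ratio was 0.12 for members. Under median scaling 21 were higher and 23 lower, or 52.3% lower, against 63.1% of all genes. Under quantile normalization 38.6% of members and 52.7% of all genes were lower. The majority direction thus depended on the scaling, while under each of the 3 scalings a smaller share of members than of all genes was lower. Of the 3 genes that were 2-fold lower in CF in both pairs, Abca1 was 1.08-fold, Abcb1a 1.13-fold and Abcg8 1.29-fold higher with lubiprostone in CF mice. For Abca1 the direction turned under median scaling. The ratios of the probe sets used ran from 0.958 to 1.23 for Abca1 and from 0.993 to 1.29 for Abcb1a, so these 2 genes have no clear direction here. Set against WT control, the CF + lubiprostone signal was 0.219 of it for Abca1, 0.293 for Abcb1a, 0.438 for Abcg8, 0.551 for Slc47a1 and 0.73 for Abcc10. Of 42 members measured with lubiprostone in both genotypes, which share no array, 13 were higher in each, 7 lower in each and 22 went opposite ways, and 29.3% and 27.8% of all genes were higher in each and lower in each. Abcc10 and Abcc8 went opposite ways by at least 2-fold, where 2.44% of all genes did.

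**Figure D3:**
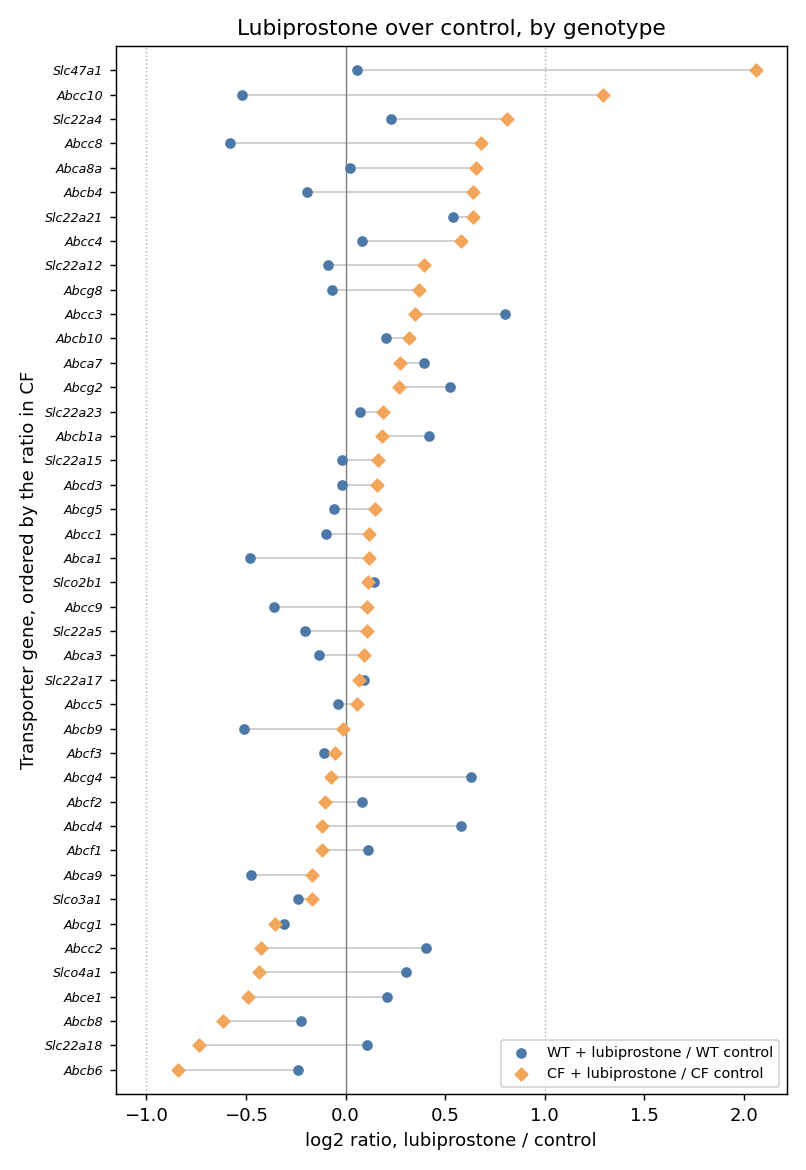
Log2 ratio of lubiprostone over control for the transporter genes measured in WT mice and in CF mice, 1 point a gene and genotype. In WT mice all ratios lie within 2-fold, from -0.58 to 0.80, and in CF mice Slc47a1 at 2.06 and Abcc10 at 1.29 lie beyond it.

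Lists of genes with related roles give the setting of these values. Of the receptors that sense xenobiotics and sterols, 10 of 12 were measured. In the untreated pair 8 were lower in CF, against 53.8% of all genes, with a median log2 ratio of -0.34. Ppara, the receptor for fatty acids, was the 1 at 2-fold, with signals of 1591, 1657, 511 and 743. Nr0b2 had a log2 ratio of -0.97 and Nr1i3 of -0.80, while Nr1h3 (liver X receptor alpha) had -0.50 and Nr1i2 (pregnane X receptor) -0.42. Over the 4 pools Nr1h3 had signals of 620, 621, 439 and 323. Nr1i2 had 936, 785, 699 and 790, so it was nearly even in the treated pair. Any link between these receptors and the transporter values was not tested. The 2 receptors that were higher were Hnf4a and Nr1h4. Hnf4a had signals of 3960, 3831, 4944 and 4700, and Nr1h4 had 984, 1057, 1270 and 2292, highest in CF + lubiprostone. For bile acids, nucleosides and peptides, 8 carriers outside the families above were measured. The CF signal in the untreated pair was 2-fold or more lower for 4 and higher for 1, against 2.61% and 1.5% of all genes. Fabp6, the ileal bile acid binding protein, had signals of 20674, 22885, 5532 and 4150.28, and Slc10a2, the ileal bile acid uptake carrier, had 807, 602, 332 and 670.2. Slc15a1, the peptide carrier of the brush border, had 6188, 5648, 3016 and 3424. Fabp6 was thus low in both CF pools, as Abca1 and Abcb1a were, while Slc10a2 was 2.43-fold lower in CF in the untreated pair and 1.11-fold higher in the treated pair.

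How well a gene's probe sets repeated each other could be seen for 17 members with several probe sets in a comparison. In the untreated pair all probe sets of a gene pointed 1 way for 10 of the 17, and the median SD of the log2 ratio over probe sets was 0.33, with the highest, 0.62, for Slco3a1. In the treated pair it was 9 of 17 and 0.21, with the highest, 0.98, for Slco4a1. With lubiprostone in WT mice it was 8 of 17 and 0.31, with the highest, 0.68, for Slco4a1. Agreement in direction was least with lubiprostone in CF mice, at 5 of 17, with a median SD of 0.29 and the highest, 0.76, for Abcb9. Over all genes with several probe sets, the median SD was 0.21 in the untreated pair and 0.20 in the treated pair. With lubiprostone it was 0.17 in WT mice and 0.22 in CF mice. The members' probe sets thus had the larger median SD in each comparison. The share of all genes whose probe sets pointed 1 way was not counted. No member had probe sets beyond 2-fold in opposite directions. This is a spread within arrays, and 29 of the 47 members rest on 1 probe set, including Slc47a1, Abcg5, Abcg8, Abcc2, Abcc10 and Slc22a4.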

How the data were processed

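Total RNA of small intestine, pooled by group, was hybridized to 4 Affymetrix whole-genome mouse arrays, 1 for each group. The deposited values are signal intensities on a linear scale, which the authors made with GCOS, and the submitters' processing notes name GCOS and MAS5, with versions not given in the sources used here. Detection calls were not used here. Trimmed of 2% of values at either end, the mean was 500.003 on each array, which shows that scaling had been done. The number of arrays limits the precision: no test was possible.

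Of 45101 probe sets, 34958 carried 1 gene symbol in the platform annotation and 932 several, which were left out, among them 1 listed for a pair of Slc22 genes. Filtering on the array median left 12259 genes. Within a comparison, probe sets at or above the median on 1 of the 2 arrays were used, signals below the array's median were raised to it, and log2 ratios were averaged over a gene's probe sets. Probe sets with the suffixes s_at (10) and x_at (3) can match more than 1 transcript. Counts at 3-fold and 2-fold were set beside those of all measured genes. Comparisons that share an array share its noise.

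Genes named are members at 2-fold in any comparison, members with probe sets opposed past 2-fold (none), a list of well-known members with signal, and Cftr, with lists of receptors and other carriers by counts and examples. Members, lists and motifs were chosen with earlier results of these data known. Alternatives were no filter, signals as measured, a stricter filter (the 75th percentile), median scaling, quantile normalization, the brightest probe set of a gene, linear averaging of ratios, probe sets counted singly, and, chosen after seeing the data, a filter on the mean of the 4 arrays. The steps that form ratios were tested on simulated data. Changes were planted there only in genes with a probe set well above the median, so the raising of low signals was little tried. Promoter windows and gene order are those of RefSeq, GRCm38.p6 for the windows. 66 of the 81 members had a window. Python 3.11.15 was used with numpy 2.4.6, pandas 2.3.3 and matplotlib 3.10.9.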

Additional observations from a re-analysis of the deposited data

Results flagged for a closer look

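Abcc10 and Abcc8 went opposite ways with lubiprostone in the 2 genotypes and were at least 2-fold apart, which held for 2.44% of the 11227 genes measured in both. For Abcc10 the log2 ratio was -0.52 in WT mice and 1.29 in CF mice, a difference of 1.81. For Abcc8 it was -0.58 in WT mice and 0.68 in CF mice, a difference of 1.26. Each rests on 1 probe set and 1 pool per group, and the difference between genotypes was not tested.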

How the results depend on the processing

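No paired analysis was possible because each group was 1 pool on 1 array. For the counts of members and their median log2 ratio in the untreated pair, 144 values under the alternatives stayed close to the reported value and 27 did not. Close was within 1.5 times for a count, and within the median SD between probe sets of all genes for the median ratio. All 27 were counts, and no direction turned at 2-fold. Without the filter and with signals as measured, all 81 members were counted, the 34 that lay below the median on every array among them. At 3-fold there were then 5 higher and 13 lower in CF control against WT control, 4 and 3 in WT + lubiprostone against WT control, 11 and 3 in CF + lubiprostone against CF control, and 6 and 5 in CF + lubiprostone against WT + lubiprostone, beside 4.17% and 6.67%, 4.42% and 4.3%, 6% and 4.02%, and 4.8% and 5.22% of all genes. At 2-fold these counts were 8 and 22, 8 and 8, 15 and 5, and 12 and 13, beside 7.84% and 12.9%, 8.29% and 8.52%, 11.7% and 7.78%, and 9.35% and 10.2% of all genes. In both comparisons of genotype, 5 members were lower and 1 higher, beside 3.25% and 2.14% of all genes. With the filter but signals as measured, 2 members were 3-fold higher in CF + lubiprostone against CF control and 2 were 3-fold lower in CF + lubiprostone against WT + lubiprostone. That last count was also 2 with the brightest probe set and with the filter at the 75th percentile, and 3 when probe sets were counted. The filter at the 75th percentile left 1 member 2-fold higher in CF + lubiprostone against CF control and 0 in CF + lubiprostone against WT + lubiprostone. Counting probe sets gave 1 that was 2-fold lower in CF + lubiprostone against CF control and 5 that were lower in both comparisons of genotype. Of the members at 2-fold, Abcg5, Abca9 and Abcc10 lost it under an alternative, and the others kept it under each alternative that measured them. With 1 pool per group, differences between mice, pools and hybridizations cannot be told apart from those between groups.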
